A study of Mus musculus with 6 samples.

Results

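The chains of the mouse MHC class I molecule were followed in HOXB-8 lines from bone marrow, in which a homeobox factor keeps myeloid progenitors dividing. The set was 9 genes of the 36528 listed, chosen by name and found by Entrez gene ID: the heavy chain genes H2-K1, H2-D1, H2-Q4, H2-Q6, H2-Q7, H2-T22, H2-T23 and H2-M3, and the light chain gene B2m. RNA was sequenced from 3 samples in the group IRF2_KO and 3 in the group Parental, under a source label that names Irf2 knock out and wildtype cells. Per the extraction notes, the knock out lines carried the Irf2 guide RNA gRNA2 and the controls the guide RNA Luc, and these notes call the cells iMACs. All 6 samples therefore share the HOXB-8 background, and each carried a guide RNA, which differed between the groups. The knock out rests on a single Irf2 guide. The labels name no treatment, mouse strain, age or clone. Nothing says that the 3 samples of a group were separate cultures, so the p-values below measure only the spread between these samples, which may be technical.

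MHC class I molecules show peptides cut from the proteins of a cell to cytotoxic T cells and to natural killer cells. A heavy chain pairs with beta-2 microglobulin, the product of B2m, in the endoplasmic reticulum, and the pair is loaded there with peptide that the TAP transporter brings in. H2-K1 and H2-D1 encode the classical heavy chains, which are highly variable between mouse strains, while the genes of the Q, T and M regions encode non-classical ones with narrower tasks. Interferons raise class I genes through promoter elements that factors of the IRF family bind, and IRF2 is a member of that family known both to repress and to activate genes.

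The libraries held 29070160 to 34051219 counts in IRF2_KO and 33422590 to 39925038 in Parental, so 3 counts equal 0.0751 to 0.103 CPM, the counts scaled to a common library total. The targeted gene Irf2 stood at 40.3, 37.0 and 40.1 CPM in the IRF2_KO libraries, against 41.1, 42.4 and 41.1 CPM in the Parental libraries, with a log2 fold change of -0.08 (SE 0.05) and an adjusted p of 0.209 in edgeR. This level does not check the labels, because an edit within the coding sequence need not lower the transcript. The counts of markers called below stand beside 23.6% higher and 23.6% lower over all genes tested. Of 8 macrophage markers, 6 were higher in IRF2_KO. The 8 summed to 898 to 903 CPM in IRF2_KO libraries and 441 to 455 CPM in Parental libraries, with C1qa at no more than 1 read. The 8 neutrophil markers summed to 1613 to 1835 CPM in IRF2_KO and 3974 to 4208 CPM in Parental, with 2 of them higher, 3 lower and 3 not past the threshold. Elane, which encodes neutrophil elastase, carried most of that difference, with a mean of 924 CPM in IRF2_KO and 2989 CPM in Parental. The 4 progenitor markers, none higher and 2 lower, summed to 585 to 625 CPM in IRF2_KO and 782 to 793 CPM in Parental. Their part in the results on class I genes was not tested, and in bulk samples fewer cells of a type and less RNA per cell cannot be told apart. Of 6 dendritic cell markers 3 were higher and 1 lower, with sums of 51.5 to 58.2 CPM in IRF2_KO and 34.5 to 36.5 CPM in Parental. Markers of other cells were low. B cell markers summed to 0.267 to 0.793 CPM in IRF2_KO and 0.0898 to 0.301 CPM in Parental, with Ms4a1 and Pax5 at 0 reads in all libraries, and T cell markers to 0 CPM in IRF2_KO and at most 0.103 CPM in Parental, with Cd3e, Cd4 and Cd8a at 0. Natural killer cell markers summed to 0.447 to 0.734 CPM in IRF2_KO and 0.820 to 1.077 CPM in Parental, with Ncr1 at 0 and Nkg7 called lower. Erythroid markers summed to 0.767 to 1.07 CPM in IRF2_KO and 0.568 to 0.795 CPM in Parental, with Hba-a1 at 0. Stromal markers summed to 1.13 to 1.97 CPM in IRF2_KO and 0.590 to 0.852 CPM in Parental, with Pecam1 called higher.

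The class I genes moved in both directions. The classical chains H2-K1 and H2-D1 and the non-classical H2-M3 were lower in IRF2_KO, while the non-classical H2-T22 and H2-T23 and the light chain B2m were higher. Of the 9 genes, 6 had enough reads to be tested, 3 of these were called higher and 3 lower. Over all 13353 genes tested 47.2% were called at an adjusted p under 0.05, 23.6% higher and 23.6% lower (quasi-likelihood test of edgeR, adjusted by Benjamini and Hochberg over all genes tested, as is each adjusted p below). In all 6 the libraries of one group did not overlap those of the other, which was true of 54.0% of all genes tested. H2-Q4, H2-Q6 and H2-Q7 were close to 0 in all 6 libraries and were not tested. The median log2 fold change (IRF2_KO minus Parental throughout) was -0.22 over the 6 genes and -0.01 over all genes tested.

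The promoter windows of the 6 expressed genes are printed to show the forms of a response element core that they hold. Each window is RefSeq sequence of GRCm38.p6 from 250 bases before to 50 bases after an annotated start, read 5′ to 3′ along the gene, and all 9 genes matched an entry (H2-K1 has 2 windows, of which the first is used). The windows are chr17:34000298-34000597 (minus strand) for H2-K1, chr17:35262844-35263143 (plus) for H2-D1, chr17:37269984-37270283 (plus) for H2-M3, chr17:36032652-36032951 (minus) for H2-T23, chr17:36042693-36042992 (minus) for H2-T22 and chr2:122147437-122147736 (plus) for B2m. Capitals mark GAAANNGAA and GAANNGAAA, 2 forms of the core of the interferon-stimulated response element, and GGGATTCCC, the kappa B site of the class I enhancer, on either strand.
H2-K1: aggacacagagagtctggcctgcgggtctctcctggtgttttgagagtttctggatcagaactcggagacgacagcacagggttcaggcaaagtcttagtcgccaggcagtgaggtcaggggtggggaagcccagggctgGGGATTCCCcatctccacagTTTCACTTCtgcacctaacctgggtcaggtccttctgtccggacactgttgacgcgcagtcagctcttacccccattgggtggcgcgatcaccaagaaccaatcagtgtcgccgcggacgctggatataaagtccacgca
H2-D1: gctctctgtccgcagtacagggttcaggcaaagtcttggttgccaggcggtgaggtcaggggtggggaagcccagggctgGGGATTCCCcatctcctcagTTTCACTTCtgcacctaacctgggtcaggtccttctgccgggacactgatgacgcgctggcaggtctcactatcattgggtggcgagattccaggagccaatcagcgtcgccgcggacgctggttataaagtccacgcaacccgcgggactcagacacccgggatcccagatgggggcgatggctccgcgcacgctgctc
H2-M3: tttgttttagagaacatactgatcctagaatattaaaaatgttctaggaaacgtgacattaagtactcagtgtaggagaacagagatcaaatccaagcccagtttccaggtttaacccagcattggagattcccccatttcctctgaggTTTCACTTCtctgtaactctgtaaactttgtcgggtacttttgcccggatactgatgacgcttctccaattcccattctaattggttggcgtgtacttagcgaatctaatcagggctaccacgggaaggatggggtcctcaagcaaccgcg
H2-T23: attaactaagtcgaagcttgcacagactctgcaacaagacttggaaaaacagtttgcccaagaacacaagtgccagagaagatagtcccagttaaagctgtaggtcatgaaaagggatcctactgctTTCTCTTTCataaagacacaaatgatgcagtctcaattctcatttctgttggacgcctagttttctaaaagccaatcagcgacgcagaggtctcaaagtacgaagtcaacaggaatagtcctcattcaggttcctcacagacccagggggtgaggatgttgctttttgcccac
H2-T22: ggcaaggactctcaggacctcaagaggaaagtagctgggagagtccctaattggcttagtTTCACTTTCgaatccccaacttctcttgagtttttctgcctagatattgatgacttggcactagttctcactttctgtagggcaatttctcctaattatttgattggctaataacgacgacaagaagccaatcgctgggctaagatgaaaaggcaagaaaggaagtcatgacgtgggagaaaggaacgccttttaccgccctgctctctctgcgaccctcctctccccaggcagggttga
B2m: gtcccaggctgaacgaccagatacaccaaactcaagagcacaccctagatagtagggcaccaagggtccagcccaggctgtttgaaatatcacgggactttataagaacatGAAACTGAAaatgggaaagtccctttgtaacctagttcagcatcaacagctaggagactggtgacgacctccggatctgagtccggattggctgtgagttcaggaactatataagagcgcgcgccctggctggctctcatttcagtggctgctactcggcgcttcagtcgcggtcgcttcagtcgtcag

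The windows of H2-K1, H2-D1 and H2-M3, the members that were lower in IRF2_KO, each held GAANNGAAA, read on the opposite strand as TTTCACTTC in all 3. The windows of H2-T22, H2-T23 and B2m, the members that were higher, each held GAAANNGAA and no GAANNGAAA, as TTCACTTTC in H2-T22, TTCTCTTTC in H2-T23 and GAAACTGAA in B2m. H2-Q4, H2-Q6 and H2-Q7, which had few or no uniquely placed reads, held GAANNGAAA as well. The windows of H2-K1, H2-D1 and these Q genes are near copies of each other around this element. Their matches are therefore not independent, and the shares of all windows given next do not allow for this. Among 32851 RefSeq windows of this length, 7.52% held GAANNGAAA and 8.56% held GAAANNGAA. Neither pattern overlapped a match of the other or of the kappa B letters in the 9 windows. The matches of the 6 expressed genes share the letters AANNGAAA, because each GAAANNGAA there is followed by A. They differ in whether the letters before NN are GAAA or GAA, and the gap before the last GAAA is the same. The form GAANNGAAA was added to the search after the sequences had been seen, the split concerns 6 genes, and no test was run on it. Matches were listed for the members only, so H2-T24 and H2-T10, described below, were not examined for it. In H2-K1 and H2-D1 the kappa B letters stood just upstream of the element, at -110 and -170 from the start against -90 and -150, and 0.353% of all windows hold them. They were also in the windows of H2-Q6 and H2-Q7. The letters ATTGG, an inverted CCAAT box, occurred in all 9 windows and in 37.4% of all windows, TATAA in 4 of the 9 and 24.9% of all, and TGACGTCA, the cyclic AMP response element, in none of the 9 and 1.79% of all. In H2-K1 the TATAA lay at +36, downstream of the annotated start. A match of letters is a description and does not show that a factor binds there.

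H2-K1 (Entrez gene 14972, chromosome 17, 33996012 to 34000619 on GRCm38) encodes the classical K heavy chain. Its level was 63.5, 68.3 and 65.8 RPKM (reads scaled by gene length and, by the authors' size factor, by library) in the IRF2_KO libraries and 110.0, 117 and 117 RPKM in the Parental libraries. Every IRF2_KO library lay below every Parental library. The mean was 65.9 ± 2.40 RPKM in IRF2_KO and 115 ± 4.07 RPKM in Parental (SD, n = 3 each), and the fit on counts gave a log2 fold change of -0.81 (SE 0.04, edgeR adjusted p = 6.72e-11), which is 1.75-fold lower.

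H2-D1 (Entrez gene 14964, chromosome 17, 35263094 to 35267497), the classical D heavy chain gene, was at 47.8, 53.0 and 52.0 RPKM in IRF2_KO and 117, 122 and 125 RPKM in Parental. The groups did not overlap. The mean was 51.0 ± 2.80 RPKM in IRF2_KO and 122 ± 3.90 RPKM in Parental (SD, n = 3 each), and the log2 fold change was -1.26 (SE 0.05, edgeR adjusted p = 4.29e-13), which is 2.40-fold lower. As a ratio of RPKM, H2-D1 over H2-K1 was 0.752, 0.776 and 0.791 in the IRF2_KO libraries and 1.07, 1.05 and 1.07 in the Parental libraries. The ratio was lower in every IRF2_KO library than in every Parental library. The ratio itself was not tested.

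H2-M3 (Entrez gene 14991, chromosome 17, 37270234 to 37274485) encodes a heavy chain that presents N-formylated peptides, such as those of bacteria and mitochondria. It had 3, 7 and 0 reads in the IRF2_KO libraries and 264, 186 and 290 reads in the Parental libraries. In RPKM this was 0.0688, 0.168 and 0 in IRF2_KO and 4.56, 3.76 and 4.91 in Parental. The transcript was close to its floor in all 3 IRF2_KO libraries. Its log2 fold change was -5.85 (SE 0.31, edgeR adjusted p = 4.96e-11), the 31st largest in size of 13353 genes tested. The ratio of summed reads, scaled by library totals, was 0.0163 with a 95% exact binomial (Clopper-Pearson) interval of 0.00779 to 0.0302, which covers counting error only. The size of the change rests on 10 reads in IRF2_KO: the log2 fold change was -7.00 without IRF2_KO library 2 and -5.22 without IRF2_KO library 3.

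H2-T23 (Entrez gene 15040, chromosome 17, 36029977 to 36032701) encodes Qa-1, the heavy chain that shows leader peptides of other class I chains to inhibitory receptors of natural killer cells. Its level was 21.6, 24.2 and 23.3 RPKM in IRF2_KO and 8.66, 8.67 and 9.16 RPKM in Parental. All IRF2_KO libraries were above all Parental libraries. The mean was 23.04 ± 1.30 RPKM in IRF2_KO and 8.83 ± 0.284 RPKM in Parental (SD, n = 3 each), 2.59-fold higher with a log2 fold change of 1.37 (SE 0.06, edgeR adjusted p = 5.07e-12).

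H2-T22 (Entrez gene 15039, chromosome 17, 36037128 to 36042742), whose product binds no peptide and is recognised by some gamma delta T cells, was at 5.88, 6.09 and 5.79 RPKM in IRF2_KO and 2.90, 2.81 and 3.06 RPKM in Parental. The groups did not overlap. Its mean was 5.92 ± 0.154 RPKM in IRF2_KO and 2.93 ± 0.128 RPKM in Parental (SD, n = 3 each), 2.01-fold higher with a log2 fold change of 1.01 (SE 0.07, edgeR adjusted p = 1.57e-09). Its sequence is the least unique among the 6 expressed members: 46.5% of the 50-base words of its GENCODE transcripts occur in transcripts of no other gene. Of its words, 31.2% are shared with H2-T10, which RefSeq lists as a transcribed pseudogene, and 26.5% with the non-coding gene A930015D03Rik, which overlaps H2-T22 and H2-T23 and had 143 reads in all 6 libraries together. Words were compared between genes and not between places in the genome, so words shared with an overlapping gene may still align uniquely. The counts hold only reads placed uniquely, and how the authors treated strand is not stated.

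B2m (Entrez gene 12010, chromosome 2, 122147687 to 122153082) encodes the light chain that all these heavy chains share. Its level was 386, 403 and 397 RPKM in IRF2_KO and 318, 301 and 289.9 RPKM in Parental, again without overlap between groups. The mean was 395 ± 8.38 RPKM in IRF2_KO and 303 ± 13.95 RPKM in Parental (SD, n = 3 each), 1.30-fold higher with a log2 fold change of 0.38 (SE 0.04, edgeR adjusted p = 1.10e-06). This was the smallest change among the 6 tested members, at rank 3237 of 13353 by size, and it did not pass a test against a change of at least 1.5-fold (edgeR glmTreat adjusted p = 1).

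**Figure D1:**
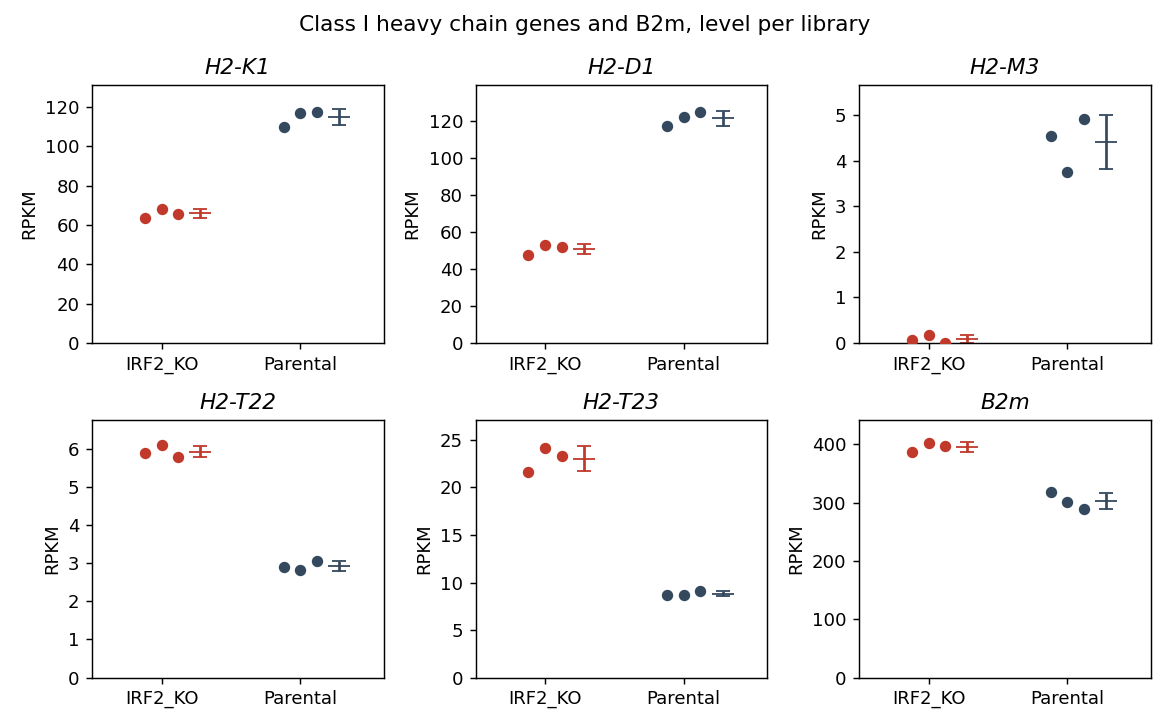
RPKM (linear axes from 0) of the 6 expressed class I genes in the 3 IRF2_KO and 3 Parental libraries, as points, with mean and SD to the right of each group. H2-K1, H2-D1 and H2-M3 lie lower in IRF2_KO, H2-T22, H2-T23 and B2m higher, and no pair of groups overlaps.

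The 3 remaining members lie between H2-D1 and the T region and encode Qa-2 family chains and their relatives. H2-Q4 had 0, 0 and 1 read in IRF2_KO and 2, 3 and 2 reads in Parental, a ratio of summed reads of 0.172 with an interval of 0.00382 to 1.34. H2-Q6 had 0, 0 and 4 reads in IRF2_KO and 1, 4 and 2 in Parental (ratio 0.690, interval 0.148 to 2.71), and H2-Q7 had 1, 0 and 0 reads in IRF2_KO and none in Parental. No difference was detectable at this depth. Of the 50-base words of these genes, 63.6% (H2-Q4), 65.0% (H2-Q6) and 73.5% (H2-Q7) occur in no other gene and could give uniquely placed reads. For comparison the share was 90.4% in H2-K1, 87.2% in H2-D1, 85.5% in H2-T23, 99.4% in H2-M3 and 100% in B2m, and with 75-base words it was 96.9% in H2-K1, 94.4% in H2-D1 and 60.03% in H2-T22. The labels give neither read length nor mouse strain, and heavy chain sequence differs between strains. The part of strain in these levels was not tested.

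Summed over the 8 heavy chain genes of the set, the level was 139, 152 and 147 RPKM in the IRF2_KO libraries, against 244, 254 and 259 RPKM in the Parental libraries. The sum leaves out heavy chain genes not matched by name, such as H2-L. It also leaves out Entrez ID 14980, described below, whose level was close to that of H2-D1 and whose identity was not settled. Set over B2m, the heavy chain sum was 0.369 ± 0.00874 in IRF2_KO and 0.835 ± 0.0647 in Parental (SD, n = 3 each), lower in every IRF2_KO library. These are transcript levels and say nothing of protein at the cell surface. H2-K1 held 45.2% ± 0.496 of the heavy chain sum in IRF2_KO and 45.4% ± 0.427 in Parental. The share of H2-D1 was 34.9% ± 0.507 in IRF2_KO and 48.2% ± 0.0807 in Parental, and that of H2-T23 was 15.8% ± 0.184 in IRF2_KO and 3.50% ± 0.0783 in Parental. H2-T22 held 4.06% ± 0.154 in IRF2_KO and 1.16% ± 0.0473 in Parental, and H2-M3 0.0535% ± 0.0555 in IRF2_KO and 1.75% ± 0.234 in Parental. The shares of H2-D1, H2-T23, H2-T22 and H2-M3 differed by more than the spread between libraries and that of H2-K1 did not, which depends on the genes summed: with H2-T24, described below, in the sum, H2-K1 held 38.6% ± 0.136 in IRF2_KO and 44.9% ± 0.395 in Parental. No p-value is given for sums or shares over chosen genes.

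**Figure D2:**
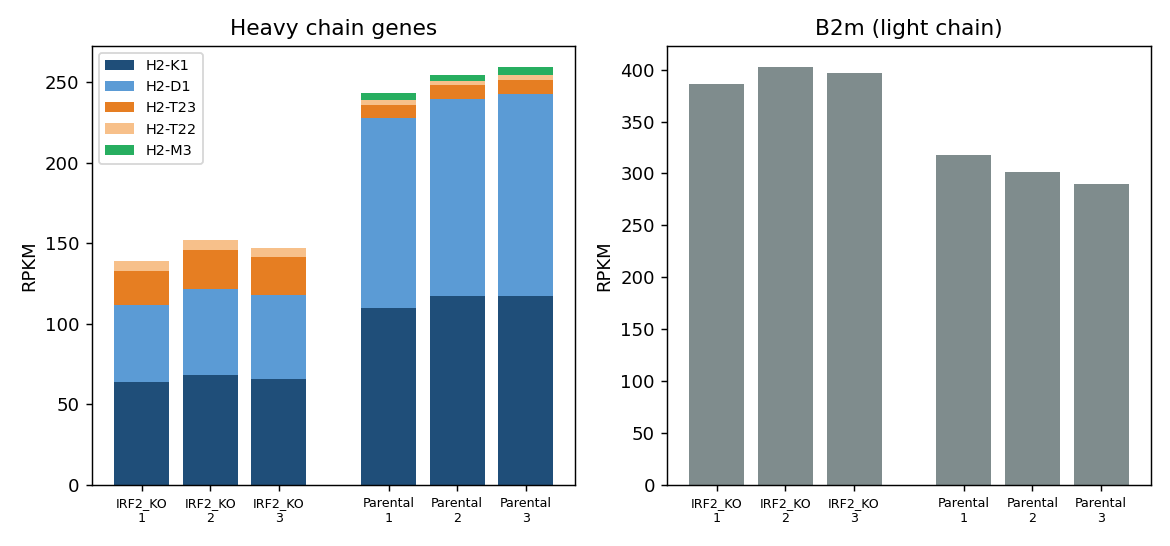
Stacked RPKM of the heavy chain genes (left) and RPKM of B2m (right) in each of the 3 IRF2_KO and 3 Parental libraries, on axes from 0. The heavy chain stacks reach 139 to 152 RPKM in IRF2_KO and 244 to 259 RPKM in Parental, while B2m is higher in IRF2_KO.

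By level per length, the order in IRF2_KO was B2m, H2-K1, H2-D1, H2-T23, H2-T22 and H2-M3, with the Q genes at or near 0. In Parental it was B2m, H2-D1, H2-K1, H2-T23, H2-M3 and H2-T22. H2-D1 and H2-K1 were neighbours in Parental whose order depends on the gene length used: with CPM per kilobase of GENCODE exons the means were 84.5 ± 2.43 for H2-D1 and 87.7 ± 2.78 for H2-K1 (SD, n = 3 each), a difference within their spread. H2-T23 and H2-M3, also neighbours in Parental, differed beyond their spread in RPKM, but stood at 5.07 ± 0.157 and 4.51 ± 0.61 CPM per kilobase, within it. The remaining neighbours among the 6 expressed genes differed by more than their spread on both scales. Neither scale corrects for reads that cannot be placed uniquely. H2-T22, with 46.5% of its 50-base words in no other gene against 99.4% in H2-M3, is the most exposed. How many of its reads were lost is not known, because words shared with the overlapping A930015D03Rik may still align uniquely. The order of H2-M3 and H2-T22 in Parental is therefore not settled. H2-Q4, H2-Q6 and H2-Q7 could not be ordered.

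Of 32 further class I heavy chain genes listed, 22 were matched by name to a gene ID with counts, and H2-L was among those not matched. Of the 22, 10 had no read in any library, 9 had at most 5 reads in a library, and 3 were tested. H2-T24 (chromosome 17, 36003471 to 36020800), a T region heavy chain gene of little known function, rose most, with 25.3, 24.5 and 24.04 RPKM in IRF2_KO and 3.09, 3.16 and 2.47 RPKM in Parental. That is 8.44-fold higher (log2 fold change 3.08, SE 0.07, edgeR adjusted p = 5.75e-16), and its mean in IRF2_KO, 24.6 ± 0.613 RPKM, was close to that of H2-T23. With H2-T24 added, the heavy chain sum was 171 ± 6.11 RPKM in IRF2_KO and 255 ± 7.91 RPKM in Parental, and H2-T24 held 14.4% ± 0.814 of it in IRF2_KO and 1.14% ± 0.173 in Parental. H2-T10, the near copy of H2-T22, had a log2 fold change of 0.997 (SE 0.07, edgeR adjusted p = 2.76e-09), nearly that of H2-T22, with which it shares words as given above. H2-K2, a transcribed pseudogene beside H2-K1, was at 1.86 ± 0.271 RPKM in IRF2_KO and 1.68 ± 0.143 RPKM in Parental (SD, n = 3 each) and did not pass (edgeR adjusted p = 0.508).

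Of 5 tested genes with a class I fold but other tasks, 2 were higher, 1 lower and 2 not past the threshold. Over all genes tested, 23.6% were higher and 23.6% lower. Hfe, which regulates iron uptake and pairs with B2m, averaged 0.286 ± 0.0809 CPM in IRF2_KO and 8.13 ± 0.334 CPM in Parental (log2 fold change -4.83, SE 0.18). Fcgrt, the neonatal Fc receptor chain that also pairs with B2m, averaged 51.3 ± 3.67 CPM in IRF2_KO and 25.8 ± 1.98 CPM in Parental. Raet1e, a ligand of the NKG2D receptor, averaged 3.90 ± 0.741 CPM in IRF2_KO and 1.40 ± 0.302 CPM in Parental (n = 3 for each mean). For Cd1d1, which presents lipids, the log2 fold change was -0.28 (edgeR adjusted p = 0.0695, and 0.0485 without IRF2_KO library 1). It was also called lower with scaling by library size alone (edgeR adjusted p = 0.0445) and on log2(RPKM + 1) (limma adjusted p = 0.0477).

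Genes that supply peptide to class I molecules were mostly lower in IRF2_KO. Of 13 tested, 11 were lower, none higher and 2 not past the threshold, where 23.6% of all genes were lower, with a median log2 fold change of -0.49 against -0.01 over all genes tested. Tap2, a subunit of the peptide transporter, had a log2 fold change of -4.17 (SE 0.07), Psmb9 and Psmb8, which code for immunoproteasome subunits, -3.62 (SE 0.14) and -2.44 (SE 0.10), and the trimming peptidase gene Erap1 -1.49 (SE 0.06). Tap1, the other transporter subunit, named here after its values were seen, had -1.89 (SE 0.09). In folding and loading, 3 of 11 genes were higher, 4 lower and 4 not past the threshold, beside 23.6% of all genes in each direction, with a median of 0.05. Tapbp, encoding tapasin, which bridges class I chains and TAP, averaged 266 ± 11.4 CPM in IRF2_KO and 167 ± 1.74 CPM in Parental, whereas Tapbpl, its relative that edits peptides outside that complex, averaged 1.61 ± 0.288 CPM in IRF2_KO and 25.7 ± 1.63 CPM in Parental (n = 3 for each mean). Sec61a1 and Pdia3, encoding a translocon subunit and a disulphide isomerase, had log2 fold changes of -0.37 (SE 0.04) and -0.22 (SE 0.04).

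**Figure D3:**
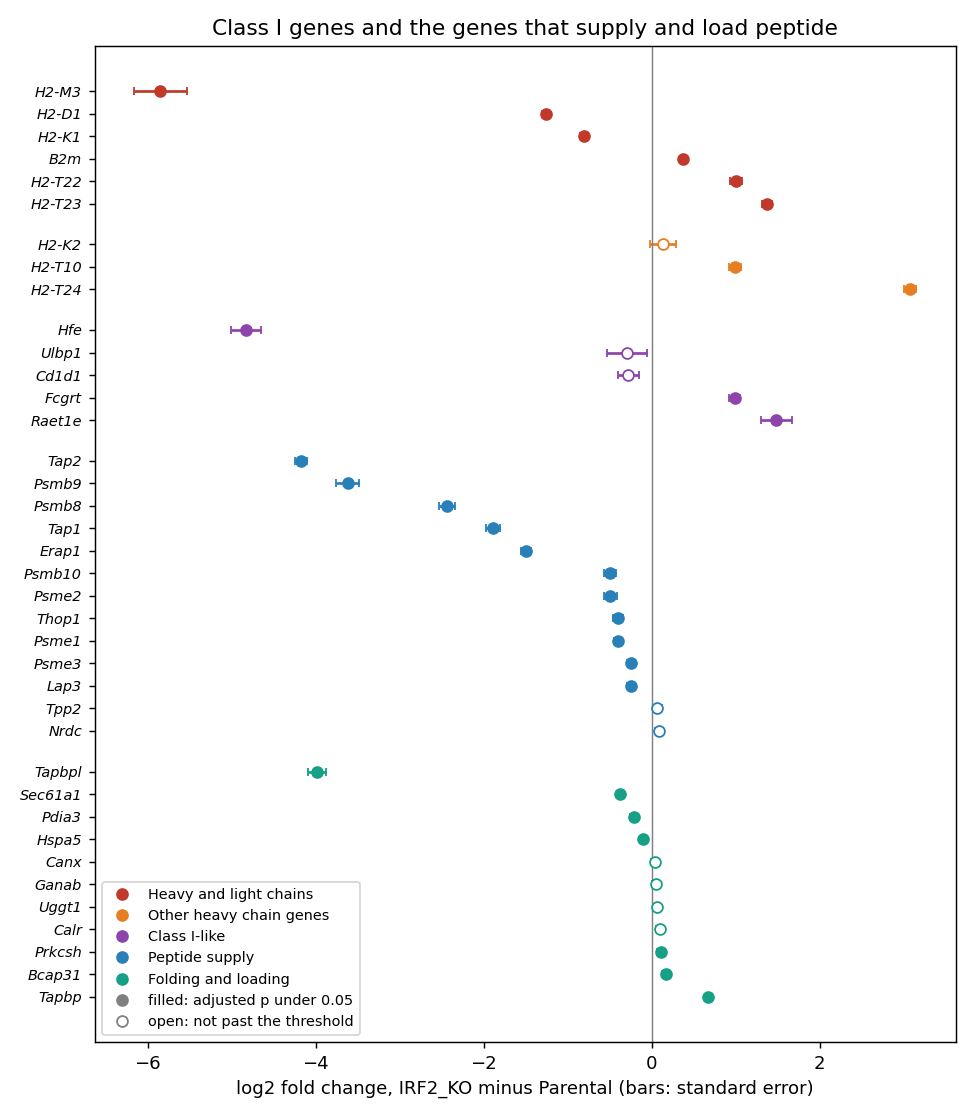
Log2 fold change (IRF2_KO minus Parental, edgeR) with its standard error for the tested class I chains, other heavy chain genes, class I-like genes, and genes of peptide supply and of folding and loading. Filled points have an adjusted p under 0.05. The 6 chain genes spread from -5.85 (H2-M3) to 1.37 (H2-T23), and 11 of the 13 peptide supply genes lie below 0 as called.

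Among 21 tested regulators of class I transcription, 5 were higher, 4 lower and 12 not past the threshold, a share called that is close to the 47.2% over all genes. Irf8, an IRF family member of myeloid cells, averaged 7.99 ± 0.311 CPM in IRF2_KO and 3.82 ± 0.275 CPM in Parental (SD, n = 3 each). Ifnar2, a receptor chain for type I interferon, and Rfxank, part of the factor bound to the X box, had log2 fold changes of 0.26 (SE 0.05) and -0.27 (SE 0.05). Nlrc5, the class I transactivator, was low, at 1.14 ± 0.314 CPM in IRF2_KO and 1.59 ± 0.139 CPM in Parental, and was not called (log2 fold change -0.48, SE 0.21, edgeR adjusted p = 0.0723). Without IRF2_KO library 2 it was called lower, with a log2 fold change of -0.66 (edgeR adjusted p = 0.0254). Irf1, an activator that binds the same elements as IRF2, had a log2 fold change of 0.32 (SE 0.06, edgeR adjusted p = 0.000505). Nlrc5 and Irf1 were named for their roles after their values were seen.

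The heavy chain genes lie along 3.28 Mb of chromosome 17, with members called in both directions. In the T region H2-T24, H2-T23, H2-T22 and H2-T10 are consecutive among the tested genes, and all 4 were higher. H2-K1 lies between H2-K2, which did not pass, and Ring1, a Polycomb gene with a log2 fold change of -0.18 (SE 0.06; edgeR adjusted p = 0.0144, and 0.0718 without Parental library 2). The nearest tested genes to H2-D1 are Mir8094, which did not pass, and Tcf19 (log2 fold change -1.61, SE 0.37). H2-Q4, H2-Q6 and H2-Q7, with few or no uniquely placed reads, lie between H2-D1 and Tcf19. Gabbr1, the tested gene below H2-M3, had a log2 fold change of 0.25 (SE 0.07; edgeR adjusted p = 0.00958, and 0.0841 without IRF2_KO library 3), and the next above it, AY036118, lies 2573626 bases away. Beside B2m on chromosome 2, neither Spg11 (edgeR adjusted p = 0.0655) nor Rps12-ps10 passed. Spg11 was called lower without Parental library 3 (edgeR adjusted p = 0.0444) and with scaling by library size alone (edgeR adjusted p = 0.0247). From H2-K1 to H2-M3, 50 of the 93 tested genes outside the set were called, which is 53.8%, beside 47.2% over all genes, and this difference was not tested.

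**Figure D4:**
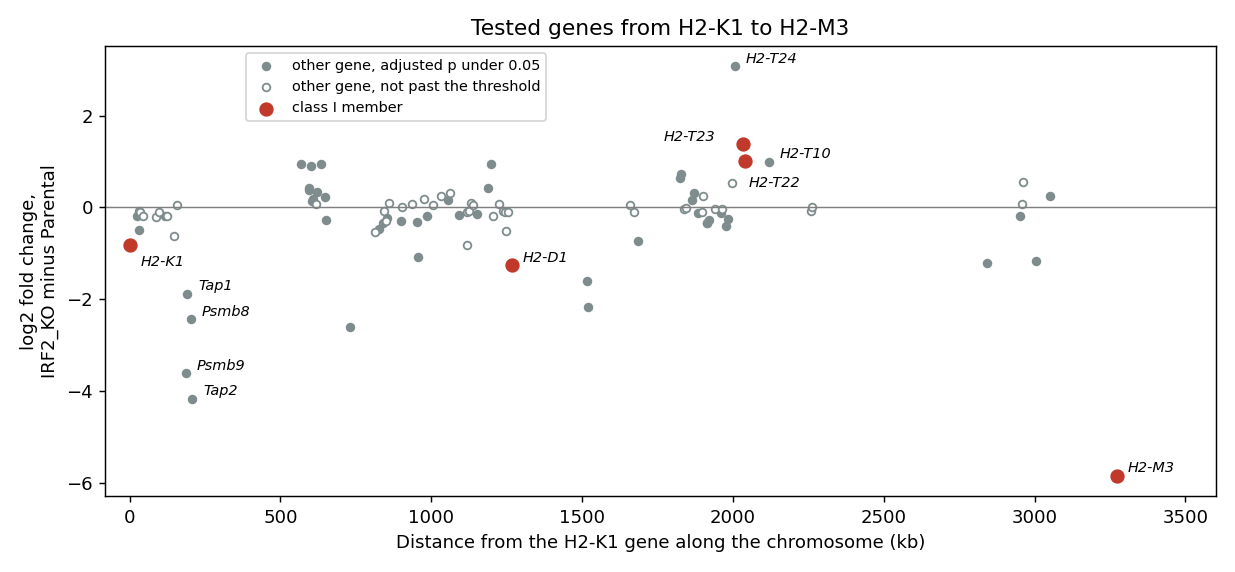
Log2 fold change of the 98 tested genes from H2-K1 to H2-M3 against distance from H2-K1 in kb, with class I members in red and genes not past the threshold as open circles. H2-K1, H2-D1 and H2-M3 lie below 0, the T region genes above it, and the Tap1, Tap2, Psmb8 and Psmb9 group near H2-K1 lies between -4.17 and -1.89.

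Genes with the most similar profile over the 6 libraries were found by the root mean square distance between centred log2 CPM, among 11844 genes. With 2 groups of 3 libraries, this distance is small for genes with nearly the same fold change and little spread. Nsmaf had a log2 fold change of -0.80 beside -0.81 for H2-K1, and Plxnb3 1.36 beside 1.37 for H2-T23. Shared control of such genes was not tested. For H2-D1, the 3 closest were a RefSeq pseudogene and 2 gene IDs with no name in the tables used here. Entrez ID 14980 had a distance of 0.0215, and the RefSeq pseudogene LOC100862431 and ID 100862447 both had 0.0338. ID 14980 stood at 47.3, 52.3 and 50.1 RPKM in IRF2_KO and 112, 118 and 124 RPKM in Parental, close to H2-D1. Which gene it is was not settled, and the heavy chain sums and shares above leave it out. LOC100862431 and ID 100862447 held the same counts in every library, 922, 933 and 1098 in IRF2_KO and 2807, 2527 and 3196 in Parental. Of 12646 IDs with at least 100 reads in all, 54 shared all 6 counts with another ID, in 20 sets. Such IDs cannot be counted as independent genes. For H2-K1 the closest gene was Nsmaf (0.0259), for H2-T23 Plxnb3 (0.0196), S100a4 (0.0347) and Lyz2 (0.0383), and for B2m Anxa5 (0.0202), Apbb1ip (0.0229) and Jag1 (0.0273). For H2-M3, whose low counts widen any distance, they were Gcnt4 (0.673), Ctso (0.708) and Gsdmd (0.737).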

How the data were processed

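RNA sequencing libraries of 3 IRF2_KO and 3 Parental samples were grouped by their group label. Per the submitters' processing notes the authors aligned reads with GSNAP to GRCm38. The authors deposited a count per gene of uniquely aligned reads, per the file headers, and RPKM values adjusted by a size factor. The sources used here do not give GSNAP's version, the annotation or the use of strand. Each library's RPKM was its count times a gene term and 1 library factor (10995 genes). The labels name polyadenylated RNA and a total RNA kit, which was not settled.

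edgeR 4.0.16 in R 4.3.3 fitted the counts (filterByExpr, 13353 genes; TMM factors 0.987 to 1.02; robust quasi-likelihood F-test, two-sided, Benjamini-Hochberg adjustment over all tested genes, threshold 0.05). Standard errors are the log2 fold change over the square root of F. This fit was checked on simulated counts. Symbols and positions came from RefSeq GRCm38.p6 (31049 of 36528 IDs). The mean chi-square per gene was 2.78 to 10.1 within and 63.7 to 73.4 between groups, so no library repeats another. Transcript words of 50 and 75 bases were compared between genes over GENCODE M21, not between places in the genome.

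The members and lists were chosen with earlier results of these data known. Named are all members, Irf2, up to 4 genes of each list by adjusted p, the 3 closest profiles (mean of at least 1 CPM, prior count 2) and the nearest tested neighbours; some genes under this rule are not reported here. Alternatives were other scaling factors, DESeq2 1.42.0, limma 3.58.1 (voom, and log2 RPKM plus 0.1 or 1), other filters, an adjusted p under 0.01, glmTreat, and each library left out.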

Additional observations from a re-analysis of the deposited data

How the results depend on the processing

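The 6 tested class I genes kept their direction and stayed called under all 17 alternatives, with 1 exception: the log2 fold change of B2m, 0.38, was no longer called against 1.5-fold (glmTreat), a test that also left 718 genes higher and 301 lower of 3146 and 3150. Over all alternatives the log2 fold change ran from -0.84 to -0.78 for H2-K1, from -1.29 to -1.21 for H2-D1, from 0.82 to 1.04 for H2-T22, from 1.29 to 1.42 for H2-T23 and from 0.35 to 0.41 for B2m. That of H2-M3 ran from -7.00 to -2.32, the last on log2(RPKM + 1), where the pseudocount is large beside its level. With CPM per kilobase of annotated exons, the heavy chain sum over B2m was 0.259 in IRF2_KO and 0.594 in Parental, and H2-D1 held 33.5% of the sum in IRF2_KO and 45.7% in Parental, because exon lengths differ from those behind the RPKM. Scaling by library size alone moved the median log2 fold change of all genes by -0.03, and 42.8% of called genes were then higher, against 49.97% in the fit reported. Without an expression filter the 3 Q genes were tested and none was called. Depth limits them and H2-M3 in IRF2_KO. No paired analysis was possible because the labels give no replicate numbers.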

Other observations

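Class II genes, which present peptides taken up from outside the cell, were low in both groups. Of 10 listed, 5 were tested and 1 was higher: Cd74, the invariant chain, averaged 2.31 ± 0.271 CPM in IRF2_KO and 1.05 ± 0.180 CPM in Parental (SD, n = 3 each, log2 fold change 1.15, SE 0.19). H2-DMb2, H2-DMa and H2-DMb1, genes of chains that load class II molecules with peptide, had log2 fold changes of -0.62, -0.19 and 0.06 that did not pass (edgeR adjusted p = 0.104, 0.161 and 0.662). For H2-DMb2 the adjusted p was 0.0282 with limma on log2(RPKM + 0.1) and 0.0209 on log2(RPKM + 1).

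Of 5 tested receptor genes of myeloid cells, 4 were higher, where 23.6% of all genes were higher. These 4 are in the paired immunoglobulin-like and leukocyte immunoglobulin-like families, some members of which bind class I molecules. Cd300a, of another family, was not called (log2 fold change -0.10, edgeR adjusted p = 0.202). Lilrb4a averaged 65.5 ± 3.03 CPM in IRF2_KO and 18.2 ± 0.931 CPM in Parental, and Lilra6 19.6 ± 1.43 CPM in IRF2_KO and 3.25 ± 0.283 CPM in Parental. Pirb, an inhibitory receptor that binds class I molecules, averaged 10.95 ± 1.06 CPM in IRF2_KO and 2.79 ± 0.164 CPM in Parental, and Pira2 5.91 ± 0.334 CPM in IRF2_KO and 1.81 ± 0.103 CPM in Parental (SD, n = 3 for each mean). These are close relatives, so the division of reads between them is uncertain. Macrophage markers, given above, were higher in the same libraries, and their part in this was not tested.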
